A study of Homo sapiens with 4 samples.

Results

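K120R p53 is a form of the tumor suppressor p53 in which arginine replaces Lys120, a residue of the DNA-binding domain that reaches into the major groove. Where it sits on the genome was mapped by chromatin immunoprecipitation and sequencing (ChIP-seq) in H1299, a line of human lung cancer cells that lacks endogenous p53. The cells stably expressed the Tet repressor and carried the p53 sequence on a lentiviral vector, so that p53 was made when tetracycline (Tet) was added. For K120R p53 there was 1 library from untreated cells and 1 from cells treated with Tet for 24 h, both immunoprecipitated with the same anti-p53 antibody and cross-linked with formaldehyde, and the same pair of conditions was measured for WT p53 in the same parental line. The authors called peaks, regions where ChIP fragments pile up above the background, in each library against its own input. The K120R lists held 2023 peaks after Tet and 12 without it, 2035 of the 6849 peaks called in all 4 libraries. All of them were taken, with no filter. With 1 library a side there was no replicate check and no test between conditions, and the intervals given below cover counting error only. The K120R ChIP libraries held 34151544 tags without Tet and 34857204 with Tet. Peak lists hold no expression values, so the cell line and the amount of p53 could not be checked in them.

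p53 binds DNA as a tetramer. Its response element (RE) of 20 bp consists of a pair of 10-bp half-sites, each with purines, then a 4-bp core (CATG or CAAG or CTTG or CTAG), then pyrimidines. Binding near a promoter or in an intron is the first step by which p53 turns on genes that halt the cell cycle, repair DNA, kill the cell or limit p53 itself. The terms used below are as follows. The summit is the base of a peak with the highest pileup. The pileup is the number of fragments over a base, scaled to the input, where a fragment is the 64 bp (without Tet) or 68 bp (with Tet) that the peak caller counted from the start of each read, shorter than the 75-bp reads themselves. Fold enrichment is the pileup at the summit plus 1, divided by the local background that the peak caller estimated from the input plus 1, and peaks were ranked by it within their own list, so that rank 1 is the strongest. A p53 RE was scored near the summit when a 20-bp window within 75 bp of the summit had at most 3 mismatches to the p53 consensus RE, without a spacer between the half-sites. TSS means the start of any transcript in GENCODE release 44, and all positions are 1-based on GRCh37.

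Sequences at the strongest K120R sites after Tet were searched for the p53 RE. The best-matching window is given, and whether p53 bound these very bases was not tested. Of the 20 peaks with the largest fold enrichment, 16 had a p53 RE near the summit, against 51.9% of all 2023 peaks. These REs are printed here from the plus strand of the reference, with both 4-bp core positions in capitals. They are named by the nearest protein-coding gene or, for a summit in an intron, by the gene around it.
CDKN1A (chr6:36644226-36644245): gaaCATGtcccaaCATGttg
CAMK4 (chr5:110830490-110830509): gaaCATGcccaaaGAAGcct
GAS6 (chr13:114540395-114540414): ggaCACGcctgggCATGtcc
MAMDC2 (chr9:72591383-72591402): gggCATGttcagaCACAtcc
GTDC1 (chr2:144860139-144860158): gagGTTGctttgaCATGtca
DHX37 (chr12:125423273-125423292): ggaCGTGcccaggCATGtcc
MDM2 (chr12:69202703-69202722): ggtCAAGttcagaCACGttc
CAMK2B (chr7:44286108-44286127): gaaCATGcccacaCATGtac
PAPPA (chr9:118706580-118706599): aggCATGcacagaCATGtcc
RPS27L (chr15:63449434-63449453): gggCAAGtcactaCATGccc
METTL15 (chr11:28161581-28161600): gtgCATGtgcagaCATGtcc
APBB2 (chr4:41146994-41147013): gggCATGttgggaCATGcct
LRRC37A11P (chr17:37203129-37203148): gaaCATGcccaggCATGtcc
ALOX5 (chr10:45934014-45934033): ggaCATGtcagaaAGTGtct
FAM3C (chr7:121151349-121151368): aggCATGtctggaCATGtct
DEGS2 (chr14:100613348-100613367): attCATGtacgaaCATGttt

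The strongest K120R peak lay at CDKN1A, which encodes the cyclin-dependent kinase inhibitor p21. It had a fold enrichment of 34.4 with 85 fragments over the summit (exact Poisson 95% interval 67.9 to 105), and the summit was 9 bp upstream of an annotated CDKN1A start and 2263 bp upstream of the canonical one. Its RE carries CATG in both cores and 2 mismatches elsewhere. Behind it came CAMK4 (calcium/calmodulin-dependent kinase IV) at 30.3, GAS6 (a ligand of the TAM receptor kinases) at 29.8, MAMDC2 at 28.4 and GTDC1 at 28.1. MDM2, the ubiquitin ligase that degrades p53, ranked 7 with a fold enrichment of 27.4 and 87 fragments. RPS27L, a ribosomal protein gene that p53 activates, ranked 11 with 25.9. PAPPA, which encodes a protease of IGF-binding proteins, ranked 9 with 27.1, although the summit lay 209 kb upstream of its nearest TSS. Of the genes named here, CDKN1A and MDM2 are on the p53 target lists used below. The summits of the 20 strongest peaks fell in introns in 12 cases and between genes in 5, against 57.7% and 33.3% of all 2023 peaks. Of the 20, 11 lay within 10 kb of a protein-coding TSS, as did 746 of the 2023. Within 1 kb of such a TSS lay 3 of the 20 and 10.8% of all peaks, and 5 of the 20 were more than 50 kb from any. A Tet-treated WT peak overlapped 19 of the 20, HACL1 being the exception, and 12 overlapped a peak of untreated WT cells. Over all 2023 peaks these shares were 56.8% and 12.9%. A peak upstream of FER1L6 tied with HACL1 at rank 20 (22.9, 48 fragments) and is not among the 20 counted, and it had an RE with 1 mismatch and a WT peak.

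Across the 2023 Tet-treated K120R peaks, fold enrichment ran from 1.87 to 34.4, with a median of 6.71 (quartiles 5.62 and 8.91). The number of fragments over the summit ran from 8 to 136 with a median of 16, so the typical K120R peak rested on few fragments and its height carried a wide counting error. Peaks were short, with a median of 204 bp, and covered 495 kb in all. The values fell steeply at the top and slowly after it. When the peaks were divided into quintiles by fold enrichment, the median was 12.4 in the highest quintile, 8.34 in the second, 6.71 in the third, 5.68 in the fourth and 4.69 in the lowest. The highest quintile also had more fragments, a median of 28, and longer peaks, a median of 435 bp, than the lowest, where the medians were 14 fragments and 122 bp.

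A p53 RE was found near the summit of 1050 of the 2023 peaks (51.9%, exact Clopper-Pearson 95% interval 49.7 to 54.1%). In windows of the same 151 bp taken 3000 bp to either side of each summit, 143 of 4046 held one (3.53%). The share fell with the rank of the peak, from 66.7% (61.8 to 71.2%) in the highest quintile through 59.0, 49.9 and 44.3% to 39.6% (34.8 to 44.6%) in the lowest. An RE with at most 1 mismatch was found in 12.4% of peaks and in 0.0494% of the flanking windows, and it was present in 24.2% of the highest quintile and 6.93% of the lowest. The middle of the RE lay a median of 19.5 bp from the summit, 16.5 bp in the highest quintile and 25 bp in the lowest. Thus even the weakest K120R peaks held the motif far more often than the sequence around them.

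**Figure D1:**
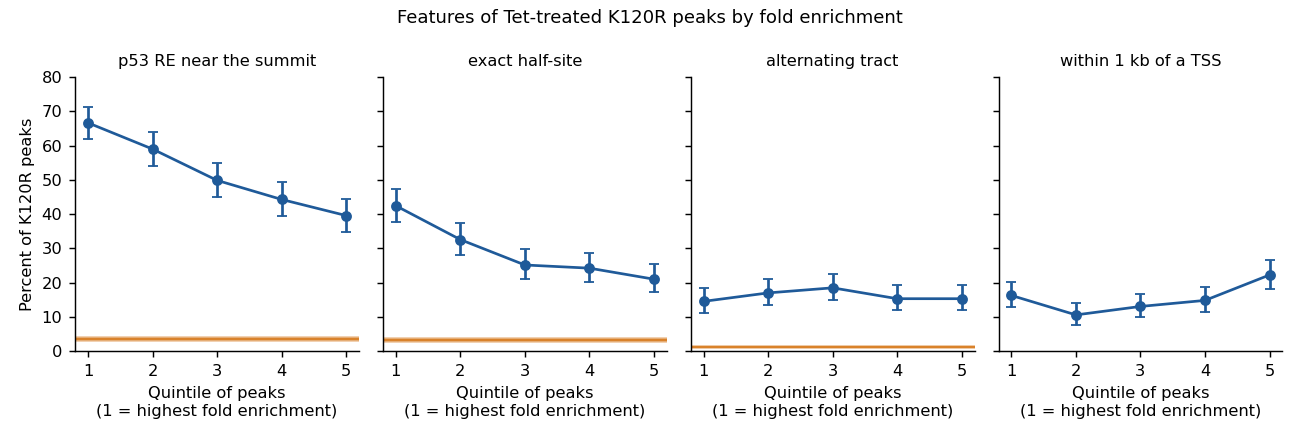
Percent of Tet-treated K120R peaks, in quintiles by fold enrichment (x axis, 1 is the highest), with each feature; points are shares with exact 95% binomial intervals (405, 405, 405, 404 and 404 peaks), and the orange lines with bands are the shares in windows 3000 bp from the summits. RE shares fell from 66.7 to 39.6%, whereas alternating tracts stayed between 14.6 and 18.5% and promoter summits were most frequent in the lowest quintile (22.3%).

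Fold enrichment also followed the quality of the RE, up to 7 mismatches. The median was 9.0 for the 61 peaks whose best window matched the consensus at every position, 8.42 for 190 peaks with 1 mismatch, 7.19 for 370 with 2 and 6.77 for 429 with 3. It went on to 6.57 for 398 peaks with 4 mismatches, 6.30 for 323 with 5, 6.10 for 208 with 6 and 5.91 for 37 with 7. The last 2 classes were small and did not follow this order, with medians of 6.99 for 5 peaks with 8 mismatches and 12.5 for 2 peaks with 9. The spread within the larger classes was wide, and the maximum at 6 mismatches, 26.2, was above the maximum of 24.2 at 0. From 0 to 6 mismatches the maximum of a class lay between 22.2 and 34.4.

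**Figure D2:**
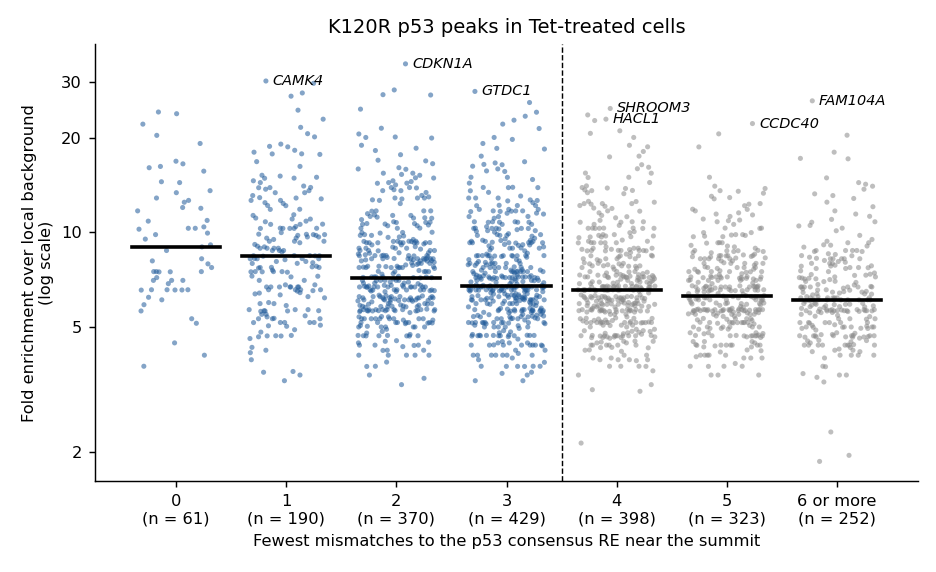
Fold enrichment of each Tet-treated K120R peak (y axis, log scale) by the fewest mismatches to the p53 consensus RE within 75 bp of the summit (x axis); blue points have an RE by the limit of 3 mismatches, grey points have none, horizontal position within a column is arbitrary and black bars are medians. Medians run from 9.0 at 0 mismatches to 6.57 at 4, and the named peaks without an RE, led by FAM104A at 26.2, lie far above the medians.

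The REs under K120R peaks kept the cores and varied in the flanks. Among the 1050 REs, the C that opens the core was present in 95.8% of first half-sites and 97.1% of second ones, and the G that closes it in 97.4 and 95.5%. The middle of the core read A then T most often: A stood at position 5 in 82.2% and T at position 6 in 77.0%. The least conserved positions were 9 and 12, which matched the consensus in 73.1 and 74.9% of REs. Because the window with the fewest mismatches was taken at each peak, every one of these shares is raised by the choice. The bases that adjoin the cores, at positions 3, 8, 13 and 18, were mostly A or T. A G or C stood at none of them in 303 REs, at 1 in 372, at 2 in 273, at 3 in 90 and at all 4 in 12. Within the K120R list this count made little difference to the height of a peak, with median fold enrichments of 7.52, 7.22, 7.19, 7.03 and 6.71 in that order. The share of G or C at these positions was 28.2% (25.6 to 31.0%) in the highest quintile and 31.9% (28.3 to 35.6%) in the lowest, and these intervals overlapped.

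The REs counted above have no insert between the half-sites by definition. When spacers of 0 to 13 bp were allowed, 238 of the best windows with at most 1 mismatch had none (78.8%). Windows with equal mismatches were resolved to the shortest spacer, which favours this class. The most frequent spacer lengths after that were 10 bp (5.30%) and 1 bp (3.64%). A single half-site that matched at all 10 positions was present near 29.1% of summits and in 3.24% of flanking windows. It was present near 42.5% of summits in the highest quintile and 21.0% in the lowest, and near 6.68% of summits without an RE.

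Some of the strongest peaks had no p53 RE by this limit, and several of their sequences are repetitive. The 30 bp centred on the summit are printed for the leading ones, plus strand, with every 4-bp core in capitals.
FAM104A (chr17:71220971-71221000): cagcacagcacaggacaggacaggacagga
SHROOM3 (chr4:77703231-77703260): ttgagaagttcctgggCATGtcactaCATG
LINC02334 (chr13:38530667-38530696): tacattgtttgattatgctaaaaagatgac
HACL1 (chr3:15634373-15634402): gtgtatacaCATGtacgcaCATGtgtgcgt
METRNL (chr17:81027521-81027550): cacacttccaCATGctcccacacgctccca
CCDC40 (chr17:78064069-78064098): cgtgcacgaacaacacgggacgcgcgcagg
FBRSL1 (chr12:133060100-133060129): cctaaccaggacataaccggaacacaaccg
CERS6 (chr2:169309473-169309502): aCATGtCATGaCATGtCATGaCATGacttt
ATF3 (chr1:212769913-212769942): caggaCATGtaacagagcCAAGgcagaaga

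The peak in an intron of FAM104A ranked 10 (fold enrichment 26.2, 56 fragments), and its summit lies on a tandem repeat of a 5-bp unit with no core at all in the printed stretch. The summit in an intron of HACL1, a peroxisomal lyase gene, ranked 20 (22.9, 48 fragments) and stands where purines and pyrimidines alternate, with 10 cores in 151 bp. CERS6, a ceramide synthase gene, had the summit 3272 bp upstream of its start on a run of CATG words spaced by a single base (20.7, 43 fragments). The summit in an intron of the non-coding LINC02334 lay 86.7 kb from the nearest protein-coding TSS, that of TRPC4, and had a fold enrichment of 23.6 with 45 fragments. The summit upstream of FBRSL1 had 0 cores in 151 bp and a fold enrichment of 21.1. For the peak in an intron of ATF3, a stress-induced transcription factor gene, the summit lay 12.1 kb from the nearest TSS and the fold enrichment was 20.6 with 43 fragments. A Tet-treated WT peak overlapped all of these 9 but HACL1 and FBRSL1. Of the peaks without an RE, 28.4% held at least 5 cores in 151 bp, compared with 44.9% of those with an RE and 9.07% of flanking windows. The count of cores in a window overlaps with the search for REs, since every RE with intact cores brings 2.

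Tracts of at least 20 bp in which purines and pyrimidines alternate were present near 327 K120R summits (16.2%, 14.6 to 17.8%) and in 1.24% of flanking windows. They were found near 23.8% of summits without an RE and 9.05% of those with one, and their share varied little with rank, from 14.6% in the highest quintile to 18.5% in the third and 15.3% in the lowest. A CA repeat of 12 bp (CACACACACACA or, on the other strand, TGTGTGTGTGTG), itself an alternating sequence, was present near 4.35% of summits and in 0.816% of flanking windows.

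K120R peaks were found mainly away from promoters. The summit lay in an intron in 1167 peaks (57.7%), between genes in 674 (33.3%), in a non-coding exon in 77, in a UTR in 77 and in coding sequence in 28 (1.38%). Counting protein-coding and non-coding genes, 312 summits were within 1 kb of a TSS (15.4%, 13.9 to 17.1%), 835 within 5 kb (41.3%) and 41 beyond 100 kb. The median distance was 7528 bp to any TSS and 19246 bp to a protein-coding one. Of the 312 promoter summits, 176 were upstream of the TSS and 136 at or downstream of it.

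**Figure D3:**
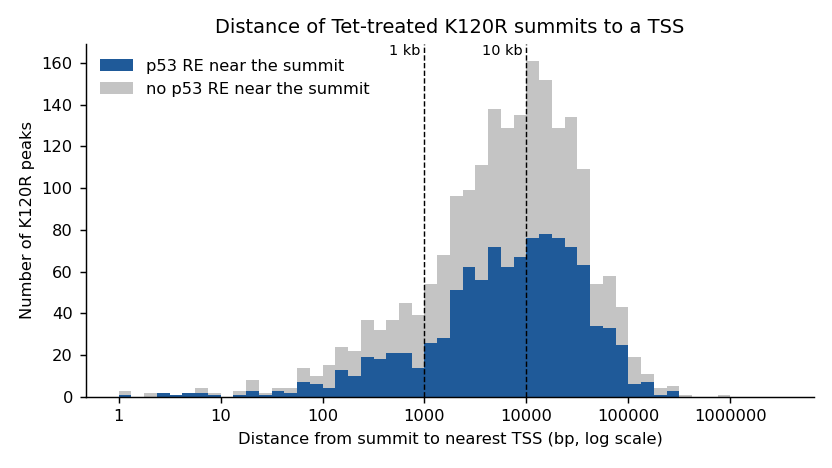
Number of Tet-treated K120R peaks (y axis) by distance from the summit to the nearest TSS of any gene (x axis, bp, log scale), stacked as peaks with a p53 RE near the summit (blue) and without one (grey). Most summits lie between 1 kb and 100 kb, and 312 of 2023 lie within 1 kb.

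Promoter summits were most frequent among the weakest peaks, at 22.3% of the lowest quintile (18.3 to 26.7%), 16.3% of the highest and 10.6% of the second. They held an RE almost as often as the other peaks, 48.7 against 52.5%. Their windows were richer in G and C, with a median of 52.98% against 43.05%, and their local background was higher, with a median of 1.56 against 1.11 scaled fragments. In the lowest quintile the median background was 2.00 both within 1 kb of a TSS and beyond it. The part of base composition and of the input in these shares was not tested. By chromosome, K120R peaks were densest on chromosome 19 (1.23 per Mb), 12 (1.10) and 17 (1.08), and sparsest on chromosome Y (0.168) and chromosome 13 (0.304).

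A protein-coding gene was counted as near a K120R peak when a summit lay within 10 kb of 1 of its TSSs. This held for 830 of 20163 genes (4.12%), and 1277 of the 2023 summits were not within 10 kb of any protein-coding TSS. Against that background, 32 of 112 genes listed as p53 targets had a K120R summit (28.6%, 20.4 to 37.9%). The strongest summit was within 1 kb of a TSS at 22 of the 32, in the highest quintile of the list at 18, and overlapped a Tet-treated WT peak at 28. Over all 2023 peaks, 15.4% were within 1 kb of a TSS of any gene and 56.8% overlapped a Tet-treated WT peak, and the distance limit of 10 kb itself raises the first count. Of the 16 genes listed as mitotic targets of the DREAM complex, which p53 represses through p21 and not by binding them, 1 had a summit (TTK, 9.16), and so had 1 of 20 housekeeping genes (ACTB, 5.13).

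**Figure D4:**
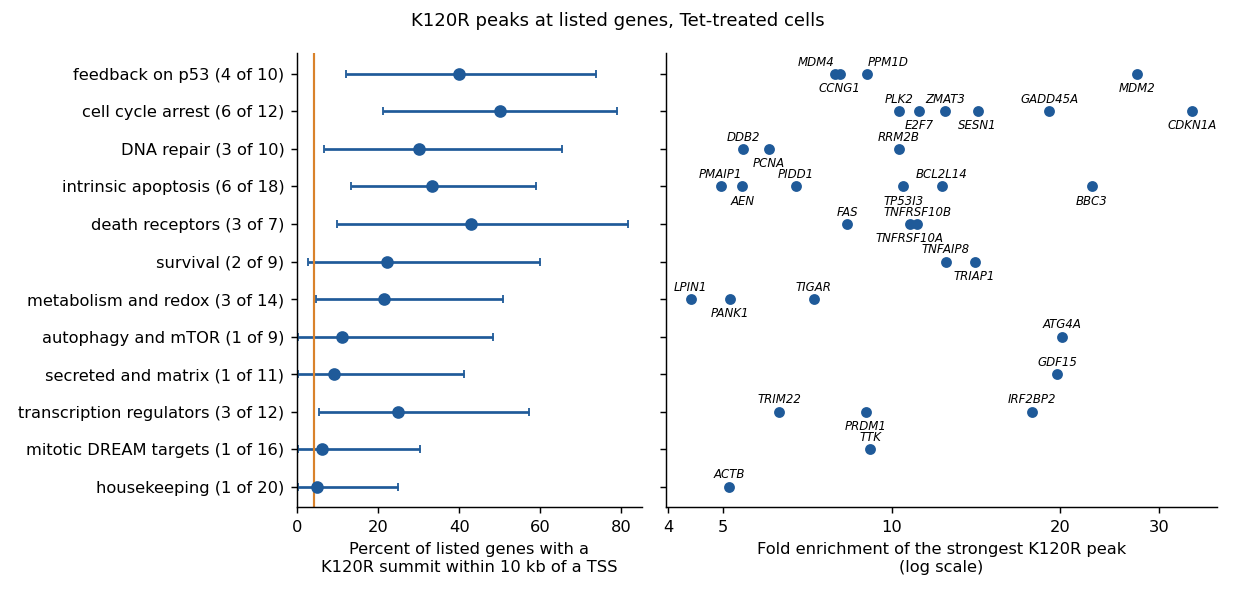
Left, percent of each gene list with a Tet-treated K120R summit within 10 kb of a TSS, with exact 95% binomial intervals and the share of all protein-coding genes (4.12%) as an orange line; right, fold enrichment (log scale) of the strongest such peak at each named gene. Cell cycle arrest genes (6 of 12) all lie above 10, while PMAIP1, AEN, LPIN1, PANK1 and ACTB lie between 4.38 and 5.42.

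The REs at listed genes that had a K120R peak are printed in the same way, with both core positions in capitals, for the leading members of the target lists, PLK2 being added for its perfect match. RRM2B and TNFRSF10B, the strongest of their lists, also had an RE near the summit, which is not printed here.
GADD45A (chr1:68152458-68152477): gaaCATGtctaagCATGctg
ZMAT3 (chr3:178787976-178787995): aggCATGtctggaCTTGttt
PLK2 (chr5:57758101-57758120): gggCAAGtccaggCATGttt
CCNG1 (chr5:162864932-162864951): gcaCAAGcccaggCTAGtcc
MDM4 (chr1:204494174-204494193): agaCATGttccaaCATGttg
BBC3 (chr19:47734577-47734596): ggaCAAGtcaggaCTTGcag
DDB2 (chr11:47236520-47236539): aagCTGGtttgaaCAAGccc
PCNA (chr20:5100821-5100840): gaaCAAGtccgggCATAtgt
PANK1 (chr10:91405013-91405032): gagCATGcccagtCCTGccc
GDF15 (chr19:18475797-18475816): ctgCATGtcccggCATGtct
ATG4A (chrX:107366251-107366270): agaCATGccccaaCATGtac
IRF2BP2 (chr1:234754327-234754346): aaaCATGtcaggaCATGcct
PRDM1 (chr6:106546458-106546477): gtgCAAGtctggaCATGttt
TRIM22 (chr11:5711781-5711800): tgaCATGtctaggCATGtag

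Genes of cell cycle arrest had the highest median among the lists with more than 2 genes bound. A summit was present at 6 of 12, all in the highest quintile, with a median fold enrichment of 13.4. Besides CDKN1A these were GADD45A (19.1, 43 fragments), whose product binds p21 and PCNA, SESN1 (14.2, 38 fragments), a sestrin that restrains mTORC1, and ZMAT3 (12.5, 24 fragments), an RNA-binding protein gene with a perfect RE in an intron. The remaining members were E2F7 (11.2, 28 fragments), a transcriptional repressor of E2F targets, and PLK2 (10.3, 27 fragments), a polo-like kinase gene with a perfect RE 2139 bp upstream of the TSS. CDKN1A had 3 summits within 10 kb. The second had a fold enrichment of 7.02 (29 fragments, 833 bp downstream of a start) and the third 9.26 (25 fragments, 3874 bp downstream of a start), and both had an RE. No summit lay within 10 kb of BTG2, PLK3, RPRM, SFN, BCL6 or IER5, the last with a summit 11.1 kb away (fold enrichment 9.19).

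Among genes that feed back on p53, 4 of 10 had a K120R summit. MDM2 stood far above the others at 27.4. PPM1D, a phosphatase that switches off the damage response, had 9.05 (28 fragments), CCNG1 (cyclin G1) 8.09 (17 fragments) and MDM4, the partner of MDM2, 7.91 (15 fragments). The counting intervals of CCNG1 (9.90 to 27.2) and MDM4 (8.40 to 24.7) overlapped. The PPM1D summit was 9 bp from the TSS and had no RE near it, although the peak held an RE with 3 mismatches whose middle was 110 bp away. TP73, RCHY1, COP1, SIAH1 and TP53INP1 were among those with no summit within 10 kb.

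Of the intrinsic apoptosis genes, 6 of 18 had a K120R summit, and they covered most of the range of the list. BBC3, which encodes the BH3-only protein PUMA, had a fold enrichment of 22.8 (72 fragments, rank 22) at a summit 153 bp upstream of a TSS, and a second summit with 8.43 (19 fragments). BCL2L14, a BCL2 family member, had 12.3 (30 fragments) without an RE and without a WT peak. TP53I3, a quinone oxidoreductase gene also known as PIG3, had 10.5 (30 fragments), and PIDD1, the core of the PIDDosome, 6.75 (15 fragments). AEN, an apoptosis-enhancing nuclease gene, had 5.42 (13 fragments), and PMAIP1, which encodes the BH3-only protein NOXA, had 4.95 (10 fragments, interval 4.80 to 18.4) and ranked 1732. None of the 12 others had a summit within 10 kb, among them BAX, APAF1, BAK1, BID and PERP. TP53AIP1 fell just outside, with a summit 10.0 kb from its TSS (6.95).

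The death receptor genes TNFRSF10B (11.1, 27 fragments), TNFRSF10A (10.8, 22 fragments) and FAS (8.34, 20 fragments) had K120R peaks, 3 of the 7 listed. TNFRSF10B and TNFRSF10A, which encode TRAIL receptors, differed little in fold enrichment, and their counting intervals, 17.8 to 39.3 and 13.8 to 33.3 fragments, overlapped. Only TNFRSF10B of the 3 had an RE near the summit, and TNFRSF10A had no WT peak. The FAS summit stood 124 bp downstream of a TSS, and an RE with 2 mismatches lay under the same peak with its middle 174.5 bp from the summit. AEN showed the same arrangement over a shorter distance, with an RE of 2 mismatches 68.5 bp from the summit, and SESN1 over a similar one, with an RE of 3 mismatches 173.5 bp away. These and PPM1D were the 4 of 13 listed genes without an RE near the summit that had one elsewhere under the peak.

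DNA repair genes had summits at 3 of 10. RRM2B, a ribonucleotide reductase subunit gene, had 10.3 (32 fragments), PCNA, the sliding clamp gene, 6.05 (12 fragments) and DDB2, the gene of a damage sensor of nucleotide excision repair, 5.43 (28 fragments). The DDB2 summit was 4 bp from the TSS, with more fragments than PCNA but a lower fold enrichment, and had an RE with 1 mismatch. XPC, POLH, FANCC, ERCC5 and POLK were among those with none within 10 kb.

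Survival genes had 2 of 9, TRIAP1 (14.1, 32 fragments), whose product inhibits apoptosome formation, and TNFAIP8 (12.5, 39 fragments). Neither had an RE near its strongest summit. TNFAIP8 had 2 summits within 10 kb, and these values are for the stronger. That peak had no WT peak, and its summit had a CA repeat and an alternating tract near it. BCL2L1, which encodes the survival protein BCL-XL, had none within 10 kb but had 2 summits in its body, the stronger (9.36, 59 fragments on a background of 5.00) in an intron 20.0 kb from a TSS with an RE of 2 mismatches and a WT peak. Metabolic and redox genes had 3 of 14: TIGAR (7.26, 30 fragments, rank 836), which lowers glycolytic flux, PANK1 (5.16, 21 fragments), a pantothenate kinase gene, and LPIN1 (4.38, 13 fragments), a lipin gene without a WT peak there. Autophagy and mTOR genes had 1 of 9, ATG4A (20.1, 42 fragments, rank 38), a protease that processes ATG8 proteins. Secreted and matrix proteins had 1 of 11, GDF15, a stress cytokine gene with 3 summits within 10 kb. The strongest of these (19.8, 69 fragments) lay in a UTR of its neighbour PGPEP1, 9709 bp upstream of a GDF15 start. The second (13.1, 41 fragments) was 756 bp upstream of a GDF15 start with an RE of 1 mismatch, and the third had 4.07. Among transcription regulators 3 of 12 had a summit, IRF2BP2 (17.8, 37 fragments), PRDM1 (9.0, 21 fragments, 5 bp from a TSS) and TRIM22 (6.30, 13 fragments). PRDM1 had 2 summits within 10 kb, and the values given are for the stronger.

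Without Tet, K120R p53 had 12 peaks. Each of the 12 overlapped a peak of the Tet-treated K120R list, where they corresponded to 9 peaks, 0.445% of that list. All 12 also overlapped a Tet-treated WT peak and 10 an untreated WT peak. The 12 fell at 4 loci. One of them, a stretch of 4302 bp on chromosome 8 (chr8:43092768-43097069), held 9 of the peaks, so 3 single loci remained.

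The peak at BBC3 (chr19:47734571-47734646) was the only 1 of the 12 with a p53 RE near the summit, the RE printed above. Without Tet it had 16 fragments over the summit (9.15 to 26.0) on a background of 1.00 and a fold enrichment of 8.41. With Tet the overlapping peak had 72 fragments (56.3 to 90.7) on a background of 2.00, a fold enrichment of 22.8 and rank 22. These counts come from separate libraries and are set side by side without a test.

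At ADAP1 (chr7:945206-945349), which encodes an ArfGAP adaptor, the untreated summit was 24 bp from a TSS. It had 33 fragments (22.7 to 46.3) without Tet and 36 (25.2 to 49.8) with Tet, and the fold enrichment was 6.07 on a background of 4.54 without Tet and 12.8 on a background of 1.70 with Tet. The best window there had 9 mismatches to the consensus. The third single locus (chr1:815410-815539) lay 43.9 kb from the nearest protein-coding TSS, that of SAMD11. It had 20 fragments (12.2 to 30.9) without Tet and 18 (10.7 to 28.4) with Tet, fold enrichments of 5.19 and 7.82, and 6 mismatches in its best window. These were the 2 loci without a peak in untreated WT cells.

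The 9 peaks on chromosome 8 lay 41.6 to 45.6 kb from the nearest protein-coding TSS, that of HGSNAT, and had no RE. They had 53 to 128 fragments without Tet, the highest counts of that list, but stood on a local background of 8.0 to 52.0 scaled fragments, and their fold enrichments were 2.37 to 9.23. After Tet 6 peaks covered them, with 92 to 136 fragments on a background of 4.00 to 36.0, fold enrichments of 3.46 to 20.4 and ranks from 35 to 2010. The local background there was high in both libraries. A background above 5 was found at 9 of the 12 untreated peaks and at 25 of the 2023 Tet-treated ones (1.24%).

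**Figure D5:**
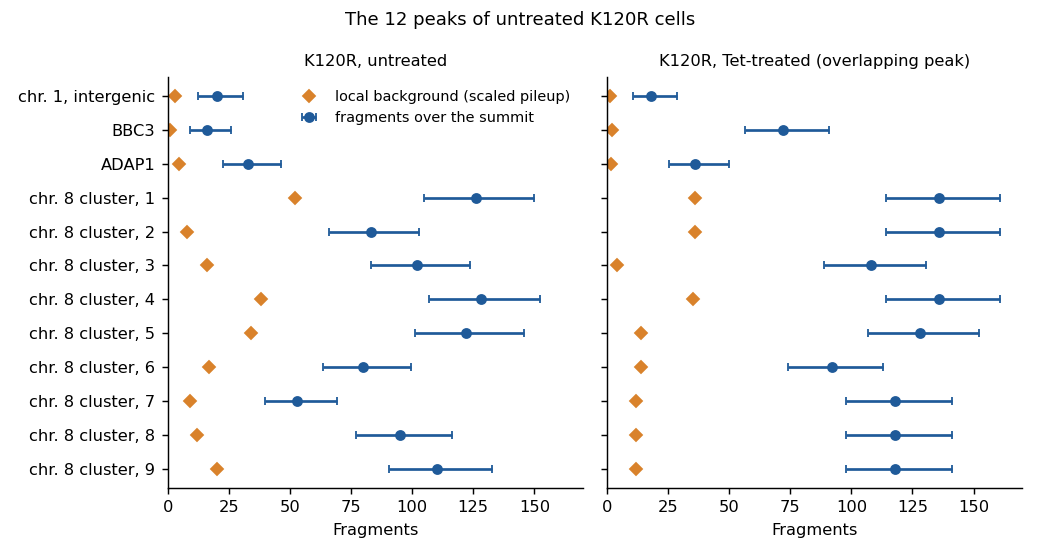
The 12 peaks of untreated K120R cells (rows): fragments over the summit with exact Poisson 95% intervals (blue) and local background in scaled pileup (orange) without Tet (left) and for the overlapping Tet-treated peak (right; rows of the chromosome 8 cluster can share a peak). BBC3 has 16 fragments without Tet and 72 with it, and the chromosome 8 cluster has high counts and a high background in both.

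At the lower end, the 5 smallest fold enrichments were 1.87 and 1.96 at a pair of neighbouring peaks on chromosome 21, 2.14 and 2.32 on chromosome 22 near DGCR6, and 3.13 on chromosome 16 near SHCBP1. The first 4 had 95, 91, 47 and 61 fragments on backgrounds of 47.0, 43.0, 20.0 and 24.0, and the SHCBP1 peak had 19 on 5.00. None of the 5 had an RE. A group of 8 peaks in 18040 bp of chromosome 20 (chr20:29620695-29638734) had fold enrichments of 3.16 to 5.15, a median background of 3.74 and no RE, and 2 of them had a WT peak.

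K120R peaks were sometimes grouped. Joining peaks less than 10 kb apart left 1726 single peaks, 105 pairs and 18 larger groups. The largest, 21 peaks in 17503 bp of chromosome X (chrX:30807114-30824616), held 21 of the 65 peaks of that chromosome and lay 46.5 kb from the nearest protein-coding TSS, that of TAB3. Its peaks had 9 to 20 fragments and fold enrichments of 5.17 to 10.8 on the background of the genome as a whole. All 21 overlapped a Tet-treated WT peak and none an untreated one. These overlaps count K120R peaks, and 1 WT peak, up to 11385 bp long in that list, can overlap several. The windows around the summits held 11 to 25 cores in 151 bp, with a median of 18, where flanking windows of all peaks had a median of 2, and 9 had an RE. The 30 bp at the summits of its 4 strongest peaks, with cores in capitals, show how the cores recur.
chrX:30817053-30817082: cCTTGcCTTGcCTTGcctcggCTTGtcctt
chrX:30807354-30807383: tccCTTGggttgtgcCTTGcCTTGtgcctt
chrX:30814356-30814385: gccttcaCTTGcCTTGctttgtgctttgct
chrX:30820871-30820900: cctCTTGaCTTGgtttgcCTTGcCTAGtgc

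In introns of an annotated CCNG2 transcript, the cyclin G2 gene, 5 peaks stood within 11529 bp, 145193 to 156479 bp from the nearest CCNG2 start. They had 13 to 15 fragments and fold enrichments of 6.57 to 8.15, 3 had an RE, 2 of them perfect, and all 5 overlapped a WT peak. CD36, which encodes a fatty acid receptor, also had 5 summits (5.57 to 7.75, 3 with an RE), and MAD1L1, a spindle checkpoint gene, had 5 (5.32 to 13.8, 2 with an RE). The longest K120R peak, 1145 bp, was in MAD1L1 (13.8, 58 fragments). After it came peaks at SORCS2 (917 bp), CNPY1 (884 bp), the chromosome 8 cluster (798 bp) and upstream of TGFA (791 bp), the only 1 of the 5 with an RE, which was perfect.

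At OSGIN1, an oxidative stress response gene whose annotated transcripts overlap MLYCD, 4 peaks stood within 980 bp, 1.18 to 2.00 kb downstream of a TSS. None had an RE or a WT peak, and all 4 had an alternating tract near the summit. They had 13, 15, 29 and 15 fragments in order along the chromosome, and the 29-fragment peak stood on a background of 5.00. MLYCD, malonyl-CoA decarboxylase, had another peak 5616 bp from its TSS (6.94). The BCL11B region had 4 peaks within 1014 bp of chromosome 14 (4.71 to 9.37), each with a CA repeat and an RE of 3 mismatches, and all overlapped a WT peak.

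The K120R list and the Tet-treated WT list were compared by presence only. The fragment lengths the peak caller used, 68 bp for K120R and 170 bp for WT, put their heights on different scales. Fragment length can also change which regions are called and how long they are, and its part in the overlaps was not tested. Peaks had a median of 204 bp and at least 8 fragments in the K120R list, and 303 bp and 12 fragments in the WT list. A Tet-treated WT peak overlapped 1150 of the 2023 K120R peaks (56.8%, 54.7 to 59.0%). The share fell from 78.3% in the highest K120R quintile through 66.4 and 51.4 to 42.6% in the fourth, and was 45.5% in the lowest. It was 73.1% (70.4 to 75.8%) for K120R peaks with an RE and 39.3% (36.2 to 42.4%) for those without. A WT peak of untreated cells overlapped 260 K120R peaks (12.9%), 30.6% of the highest quintile and 6.44% of the lowest.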

How the data were processed

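The deposited ChIP-seq peak tables of 4 libraries were analysed, 1 per condition, grouped by their labels. Per the labels Tet was given at 1 µg per µl, whereas the methods give 1 µg per ml. The authors aligned 75-bp reads to GRCh37 with BWA. MACS 2.1.1.20160309 then compared every ChIP library with the input of the same cells; duplicates were reduced to 1 tag per position, and a peak needed a q-value under 0.05. The deposited pileup is a signal height, the authors' count of fragments after scaling ChIP to input (0.934 in the Tet-treated K120R library). The deposited fold enrichment is a ratio to local background. The p-values and q-values were deposited on the −log10 scale. The score of the authors' narrow-peak files and the files themselves were used only to check that the 3 files of a library held the same peaks.

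Pileup divided by the scale gave whole fragments to within 0.00502 in the K120R libraries. Local background was computed as (pileup + 1)/fold enrichment − 1. The K120R lists were taken whole. Peaks overlapped when they shared at least 1 bp. The window with the fewest mismatches, then nearest the summit, was taken as the RE. Flanking windows lay 3000 bp to either side. Intervals are exact Clopper-Pearson (shares) and Poisson (fragments) at 95%. Analyses ran in Python 3.11.15 (pysam 0.24.0, pandas 2.3.3, scipy 1.17.1, numpy 2.4.6, matplotlib 3.10.9) and were tested on simulated sequences and positions. Named were the genes at the 20 strongest peaks, all untreated peaks, listed genes with a summit within 10 kb (strongest 4 per list in full), genes with at least 4 summits, and the 5 longest and 5 weakest peaks. Strong peaks without an RE and peak clusters were singled out after their values were seen. The members, gene lists and alternatives were chosen with earlier results of these data known.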

Additional observations from a re-analysis of the deposited data

How the results depend on the processing

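Of 47 alternatives tried on 9 results, 22 left the value within 1.5 times (counts) or within its 95% interval (shares), and 25 moved it further. Only 1 of the 9 results, the RE share of the highest minus the lowest quintile, is a difference, and it kept its direction. A minimum −log10 q of 10 gave 631 Tet-treated peaks, an RE share of 65.3%, a WT overlap of 70.4%, 1.53% of protein-coding genes, 19.6% of listed target genes, and an RE difference between the highest and lowest quintile of 17.7 percentage points (27.1 otherwise). With a minimum of 5 the RE share was 56.9%, the WT overlap 61.3% and the gene share 2.87%. At a fold enrichment of at least 5, 7 of the 8 untreated peaks left overlapped a Tet-treated peak, 13.7% of summits were within 1 kb of a TSS, 54.3% had an RE and 3.53% of genes had a summit. The RE share was 30.7% with at most 2 mismatches (flanking windows 0.346%), 71.6% with at most 4 (17.6%), 69.5% with spacers of 0 to 13 bp (24.9%) and 56.4% anywhere under the peak. The quintile difference was 38.2 points anywhere under the peak, where long peaks give more windows, and 19.4 with spacers. The TSS share was 10.8% for protein-coding genes only and 41.3% within 5 kb. The gene share was 2.81% within 5 kb, 7.31% within 25 kb and 2.23% with 1 TSS per gene. WT overlap was 54.6% with summits within 200 bp of each other. No paired analysis was possible because each condition had 1 library. A list holds only regions above a threshold. At these depths the lack of a K120R peak, at BAX for example, or of a WT peak means that none was called. With 8 to 136 fragments at a K120R summit the order of neighbouring peaks is not resolved.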
